A study of Mus musculus with 12 samples.

Results

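The serotonin receptor genes were examined in RNA-sequencing counts from the prefrontal cortex (PFC) of mice. The 10 genes were *Htr1a*, *Htr1b*, *Htr1d*, *Htr1f*, *Htr2a*, *Htr2c*, *Htr3a*, *Htr4*, *Htr5a* and *Htr7*, taken by symbol from the 41388 genes of the deposited count table. All mice were male Swiss Webster mice aged 10 weeks, fed the same autoclaved diet, and the tissue was hand-dissected medial PFC. Conventionally raised mice (CON) carried a normal microbiota, germ-free mice (GF) were kept in isolators without microbes, and exGF mice were born germ-free and moved on postnatal day 21 to a standard unit next to CON mice, where they were colonized from the surroundings. The 3 comparisons asked whether a missing or late-arriving microbiota is accompanied by other receptor transcript levels. Each group had 4 libraries, and each library was a pool of RNA from 2 to 3 animals, so the spread given here is that between pools and not between single mice. Counts on genes were 22757169 to 29134760 per library in CON, 13280926 to 23465074 in GF and 22702599 to 28615407 in exGF. Of the 10 receptor genes, 10 passed the filter on low counts in CON against GF and in CON against exGF, and 9 in GF against exGF, where *Htr1d* was left out.

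Serotonin is made by neurons of the raphe nuclei in the brainstem, whose axons reach the whole cortex, and what it does to a cortical cell depends on which receptors that cell carries. All receptor classes except the Htr3 class couple to G proteins. Receptors of the Htr1 class and *Htr5a* couple to inhibitory Gi/o proteins, which lower cyclic AMP and open potassium channels. The Htr2 class couples to Gq and phospholipase C, and *Htr4*, *Htr6* and *Htr7* couple to Gs, which raises cyclic AMP. *Htr3a* encodes a subunit of an ion channel that serotonin opens directly. In the PFC, pyramidal neurons are known for *Htr1a* and *Htr2a*, and a class of interneurons for *Htr3a*.

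No receptor gene passed the test between any pair of groups. In the quasi-likelihood F-test of edgeR, adjusted over all genes tested after Benjamini and Hochberg, 0 of 10 receptor genes had an adjusted p under 0.1 in CON against GF, against 0.251% of all 15542 genes tested. In CON against exGF the count was 0 of 10, against 0.0696% of genes, and in GF against exGF it was 0 of 9, against 0% of genes. At such backgrounds a count of 0 says little about 10 genes by itself. The looser counts were 0 as well. No receptor gene had an unadjusted p under 0.05 in the 3 comparisons, against 8.69%, 5.33% and 6.65% of all genes tested, and none had libraries that did not overlap between groups, against 5%, 3.32% and 3.53%. DESeq2 and limma-voom also called 0 receptor genes in each comparison, with 0 at an unadjusted p under 0.05. Of all genes DESeq2 called 0.812%, 0.24% and 0.0852% and put 6.07%, 4% and 4.76% under 0.05, and limma-voom called 0.302%, 0.0759% and 0% and put 8.53%, 5.35% and 6.68% under it. What the data do give is the level of each receptor, how closely the groups can be compared and how the pools differ among themselves.

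The sequences upstream of 4 receptor genes are shown because these genes formed the pair whose levels went together most closely over the libraries (*Htr1f* and *Htr2a*) and the pair that went most opposite (*Htr1a* and *Htr2c*) over all 12 libraries, places that other pairs took once CON2 and GFR4 were left out, as described further on. They are RefSeq promoter windows of GRCm38.p6, from 250 bases before to 50 bases after the start of the transcript, written 5′ to 3′ on the strand of the gene. Capitals mark a GC box, the letters GGGCGG, or its reverse complement CCGCCC where the box lies on the opposite strand. The windows are chr16:65105735-65106034 on the minus strand for *Htr1f*, chr14:74640624-74640923 on the plus strand for *Htr2a*, chr13:105443443-105443742 on the plus strand for *Htr1a* and chrX:146962263-146962562 on the plus strand for *Htr2c*.
Htr1f: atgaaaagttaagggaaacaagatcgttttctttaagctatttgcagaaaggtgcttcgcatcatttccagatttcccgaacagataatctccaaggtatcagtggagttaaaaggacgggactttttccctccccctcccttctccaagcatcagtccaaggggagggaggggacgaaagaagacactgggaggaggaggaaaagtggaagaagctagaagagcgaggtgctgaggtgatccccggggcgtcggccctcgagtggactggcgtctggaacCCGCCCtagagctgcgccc
Htr2a: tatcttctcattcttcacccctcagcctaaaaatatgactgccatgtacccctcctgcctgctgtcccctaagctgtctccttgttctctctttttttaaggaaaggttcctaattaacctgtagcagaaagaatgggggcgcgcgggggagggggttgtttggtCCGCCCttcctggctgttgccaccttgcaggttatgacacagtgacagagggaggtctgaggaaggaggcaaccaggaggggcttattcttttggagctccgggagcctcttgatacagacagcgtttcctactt
Htr1a: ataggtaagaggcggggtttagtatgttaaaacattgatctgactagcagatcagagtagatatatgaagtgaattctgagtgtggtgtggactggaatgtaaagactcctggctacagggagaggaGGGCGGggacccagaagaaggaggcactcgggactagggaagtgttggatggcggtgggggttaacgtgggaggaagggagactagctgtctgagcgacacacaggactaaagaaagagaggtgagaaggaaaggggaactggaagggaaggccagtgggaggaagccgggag
Htr2c: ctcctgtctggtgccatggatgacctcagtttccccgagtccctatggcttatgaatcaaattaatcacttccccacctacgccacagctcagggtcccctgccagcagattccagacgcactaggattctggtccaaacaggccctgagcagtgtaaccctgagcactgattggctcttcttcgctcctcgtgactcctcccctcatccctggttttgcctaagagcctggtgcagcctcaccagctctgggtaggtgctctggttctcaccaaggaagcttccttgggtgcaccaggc

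The letters TATAAA (the TATA box), GGGCGG (the GC box), CACGTG (an E-box) and TGACGTCA (a cyclic AMP response element) were searched on both strands of these windows, and no 2 of the matches found overlapped. Over 32851 RefSeq promoter windows of 300 bases, 13.6% held TATAAA, 35.7% GGGCGG, 7.15% CACGTG and 1.79% TGACGTCA. *Htr1a* had a GC box 123 bases before the start, *Htr2a* had one on the opposite strand 85 bases before it, *Htr1f* had one on the opposite strand 31 bases after it, and *Htr2c* had none of these letters. RefSeq windows were found for 8 of the 10 genes, and the richest in G and C was that of *Htr7*, with 81.0% and 46 CpG sites, against medians of 52.7% and 7 over all windows. *Htr1d* had windows at 2 starts, with 52.0% and 74.3% G and C, 7 and 28 CpG sites, and 1 and 4 GC boxes. Those of *Htr1a*, *Htr1b*, *Htr1f*, *Htr2a*, *Htr2c* and *Htr5a* held 52.0% to 61.3% G and C.

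The marker genes of cortex were high. *Slc17a7*, the vesicular glutamate transporter of cortical excitatory neurons, was at 1327 to 1629 CPM (counts scaled to a common library size) in the 12 libraries, while of 4 markers of raphe serotonin neurons *Fev* had 0 counts in every library, *Slc6a4* at most 7, *Tph2* at most 25 and *Slc18a2*, which other monoamine neurons also use, at most 148. CON replicate 2 (CON2) and the exGF library GFR4 stood apart from the others. The summed level of 9 striatal marker genes was 415 CPM in CON2 and 393 CPM in GFR4, against 185 to 251 CPM in the other 10 libraries. *Adora2a*, a receptor of striatal projection neurons, was at 9.73 and 9.21 CPM there and at 1.37 to 3.90 CPM elsewhere. GF1 had the fewest counts of all libraries and the most *Ttr*, a choroid plexus gene, at 9.21 CPM against at most 2.61 CPM in the others. Of the other choroid plexus markers only *Otx2*, with at most 10 counts, was highest in GF1. *Kl* was at 3.17 CPM in GF1 and 4.29 in CON3, and *Clic6* at 1.18 in GF1 and 1.58 in GFR4. *Kcnj13*, *Folr1*, *Sostdc1* and *Aqp1* were also higher in another library. Pools of tissue hold many cell types, and fewer cells of a type cannot be told apart from less RNA per cell. The 5 oligodendrocyte markers summed to 1954 ± 200.3 CPM in CON (mean ± SD, n = 4), 3376 ± 741 in the GF libraries and 2233 ± 524 in those of exGF. Correlations of the receptor genes with these lists are given further on.

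*Htr1a*, *Htr5a* and *Htr2a* were the most abundant receptor transcripts. Levels were compared between genes as CPM per kilobase of exon, averaged over all 12 libraries. *Htr1a*, an inhibitory receptor of pyramidal neurons, was at 5.41 ± 0.752 CPM per kilobase (SD, n = 12), *Htr5a* at 5.39 ± 0.532 and *Htr2a* at 4.89 ± 1.01. These 3 did not differ beyond their spread, since *Htr1a* was above *Htr5a* in 7 of 12 libraries and *Htr5a* above *Htr2a* in 9 of 12. All 3 lay near the middle of the 16032 expressed genes, at the percentiles 56.7, 56.5 and 54.1. *Htr2c* followed at 2.80 ± 0.801 CPM per kilobase, below *Htr2a* in 11 of 12 libraries. Its place depends on the length used. The exons of its 7 annotated transcripts add up to 9328 bases and its longest transcript to 4883, and per kilobase of the longest transcript *Htr2c* was at 5.35, the third highest of the receptor genes, with *Htr2a* above it in 5 of 12 libraries.

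A middle group held *Htr6* at 2.23 ± 0.396, *Htr3a* at 2.22 ± 0.350 and *Htr7* at 2.21 ± 0.284 CPM per kilobase, which cannot be put in order. *Htr7* was above *Htr1b*, at 1.59 ± 0.194, in 12 of 12 libraries, and *Htr1b* above *Htr1f*, at 0.807 ± 0.212, in 12 of 12. *Htr1d* at 0.146 ± 0.0873 and *Htr4* at 0.128 ± 0.0650 were at the lower edge of detection, with percentiles of 3.07 and 2.47 among expressed genes. The same order held in each group up to swaps between neighbours. *Htr5a* ranked first of the 10 and *Htr1a* second in CON and GF, and the reverse in exGF, while *Htr2a*, *Htr2c*, *Htr1b* and *Htr1f* held ranks 3, 4, 7 and 8 in all 3 groups. The 4 leading genes, named after their levels were seen, made up 70.6% ± 2.87 of the summed level per kilobase of the 10 genes in CON, 72.8% ± 2.29 in GF and 73.1% ± 1.75 in exGF. The CPM of the 10 genes summed to 128 ± 11.9 in CON, 131 ± 10.8 in GF and 129 ± 9.86 in exGF.

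**Figure D1:**
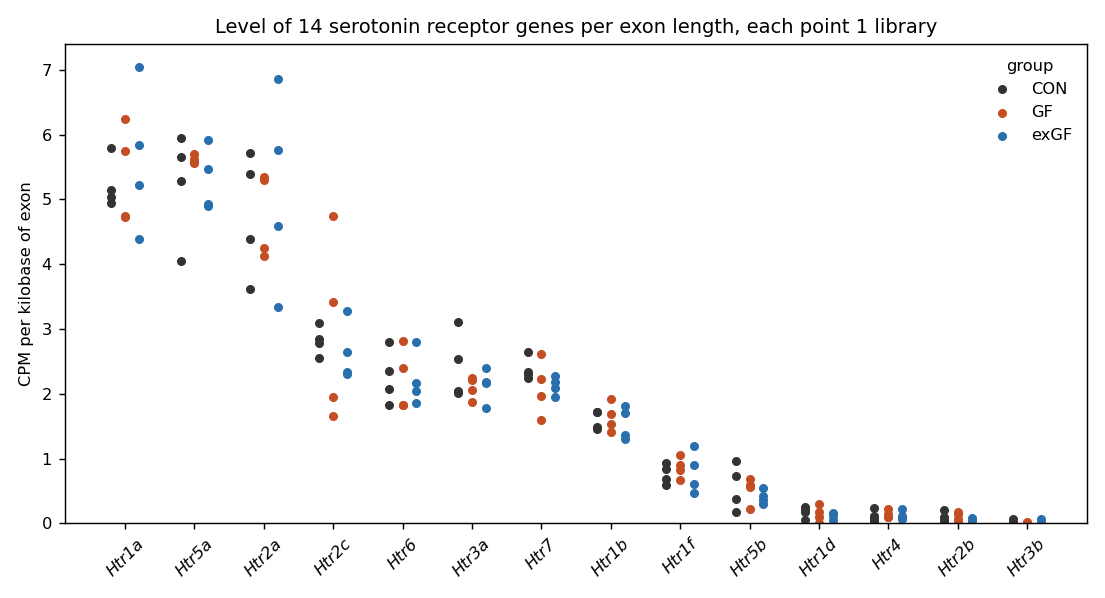
Level of 14 serotonin receptor genes in CPM per kilobase of exon, in falling order of the mean over 12 libraries. Each point is 1 library, coloured by group. *Htr1a*, *Htr5a* and *Htr2a* lie together at the top, *Htr2c* below them, and *Htr1d*, *Htr4*, *Htr2b* and *Htr3b* lie close to 0 in every group.

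The values in the following paragraphs are CPM of single libraries, which compare libraries and not genes. Each fold change is on the log2 scale with its standard error (SE) and comes from edgeR's quasi-likelihood fit of the 2 groups named, and a positive value means a higher level in the group named last. The comparisons share libraries, so their values for 1 gene are not independent of each other.

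*Htr1a* lies on chromosome 13 at 105443639 to 105448122 and is a single exon. Its level was 23.1, 22.2, 26.0 and 22.6 CPM in the 4 CON libraries, 28.0, 21.2, 25.8 and 21.3 in GF, and 31.6, 23.4, 26.2 and 19.7 in exGF. The groups overlapped, and the highest and the lowest value of all were both exGF libraries. From CON to GF the log2 fold change was 0.04 (SE 0.11, adjusted p = 0.941), and from CON to exGF it was 0.09 (SE 0.13, adjusted p = 0.982). The 95% interval of the GF to CON ratio ran from 0.873 to 1.22.

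*Htr1b*, which sits largely on axon terminals and limits transmitter release, was at 8.15, 7.0, 6.87 and 8.10 CPM in CON, 6.70, 9.09, 7.27 and 7.96 in GF, and 8.58, 8.04, 6.43 and 6.16 in exGF. Its 3 group means lay between 7.30 and 7.76 CPM, and the log2 fold change from CON to GF was 0.06 (SE 0.14). The gene lies on chromosome 9 at 81628291 to 81633828, on the minus strand, and shares 852 exon bases with the antisense gene *D430036J16Rik*. Pairs were counted without regard to strand, so reads from the shared stretch cannot be given to either gene. *D430036J16Rik* itself had 0 to 53 counts per library, and *Htr1b* had 91 to 213.

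*Htr1d*, also a receptor of axon terminals, had few counts. They were 20, 15, 5 and 15 in CON, 0, 13, 6 and 18 in GF, and 12, 4, 12 and 12 in exGF. The count of 0 was in GF1, the shallowest library, and a count of 0 allows up to 3 counts in it. The log2 fold change from CON to exGF was -0.52, the largest of any receptor gene in that comparison, but its SE was 0.47 and its 95% interval ran from a ratio of 0.347 to one of 1.40. A difference of this size was not detectable here.

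*Htr1f* was at 1.76, 1.54, 2.4 and 2.17 CPM in CON, 2.73, 2.14, 1.71 and 2.34 in GF, and 1.56, 3.10, 2.32 and 1.20 in exGF. GFR2 and GFR4 held the highest and the lowest value of all 12 libraries, and the coefficient of variation (CV) of exGF was 41.3% against 19.9% in CON and 18.9% in GF. The log2 fold change was 0.18 (SE 0.24) from CON to GF and -0.14 (SE 0.29) from GF to exGF, and the latter was 0.05 without GFR4.

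*Htr5a*, on chromosome 5 at 27842149 to 27855088, had the most even level of all receptor genes in the GF group. The 4 GF libraries were at 30.3, 30.7, 29.9 and 30.0 CPM, a CV of 1.13%, while the CON libraries were at 28.4, 21.8, 30.4 and 32.0 and the exGF libraries at 31.8, 26.5, 29.4 and 26.4. For Poisson counts at the mean level of *Htr5a*, counting alone gives a CV of 3.93% over the 12 libraries. The CV in GF lies below this, so it cannot be read as a trait of the group. The low CON value was CON2. The log2 fold change from CON to GF was 0.11 (SE 0.11, adjusted p = 0.821), and without CON2 it was 0.01. From GF to exGF it was -0.10 (SE 0.09, adjusted p = 0.840), with 3 of 4 exGF libraries below all GF libraries.

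*Htr2a*, the receptor through which classical hallucinogens act, lies on chromosome 14 at 74640840 to 74709494. It was at 24.6, 20.3, 32.1 and 30.2 CPM in CON, 29.7, 30.0, 23.1 and 23.8 in GF, and 25.8, 32.3, 38.4 and 18.8 in exGF. The group means of CON and GF were 26.8 and 26.6 CPM, and the log2 fold change was 0.00 (SE 0.14, adjusted p = 0.998), with a 95% interval of the ratio from 0.809 to 1.24. The 2 lowest values belonged to GFR4 and CON2, the libraries with the most striatal marker transcripts. Without both, the log2 fold change from CON to exGF was 0.16 (SE 0.15, adjusted p = 0.973), against 0.09 (SE 0.19, adjusted p = 0.993) with them. Without CON2 the value from CON to GF was -0.11 (adjusted p = 0.860), and without GFR4 that from GF to exGF was 0.26 (adjusted p = 0.651) in place of 0.10.

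*Htr2c*, a receptor whose transcripts are known to be edited and spliced and which is abundant in choroid plexus, lies on the X chromosome at 146962513 to 147197277. It was at 23.8, 26.0, 26.6 and 28.8 CPM in CON, 15.5, 31.8, 18.2 and 44.3 in GF, and 24.6, 21.8, 21.5 and 30.5 in exGF. The GF libraries fell on both sides of all CON libraries, with GF1 and GF3 below and GF2 and GF4 above. The means were close, 26.3 ± 2.06 CPM in CON and 27.5 ± 13.3 in GF (SD, n = 4), and the log2 fold change was 0.08 (SE 0.24, adjusted p = 0.953). The CV was 7.82% in CON, 48.5% in GF and 17.1% in exGF. Whether the spread itself differed between groups was not tested. The counts behind the 4 GF values were 210, 714, 341 and 813. Leaving out GF4 turned the CON to GF value to -0.25 and leaving out GF1 moved it to 0.26. GF1, with the most *Ttr* but not the most of most other choroid plexus markers, had the lowest *Htr2c* of all 12 libraries. Over the 12 libraries *Htr2c* had a Pearson's r of -0.135 with the mean log2 CPM of the choroid plexus markers (permutation p = 0.680). Whether choroid plexus tissue bears on the *Htr2c* values was not tested further.

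*Htr7*, a Gs-coupled receptor on chromosome 19, was at 7.95, 7.85, 7.66 and 8.98 CPM in CON, 5.45, 7.57, 8.88 and 6.70 in GF, and 7.43, 6.64, 7.11 and 7.74 in exGF. It had the smallest p of the receptor genes in CON against exGF. There 3 of 4 exGF libraries were below all CON libraries, the means were 8.11 ± 0.593 and 7.23 ± 0.470 CPM, and the log2 fold change was -0.18 (SE 0.12, adjusted p = 0.952). In GF too, 3 of 4 libraries were below all CON libraries, with a log2 fold change of -0.16 (SE 0.15, adjusted p = 0.809). *Htr4*, the other Gs-coupled receptor of the list, had 5 to 32 counts per library, and its ratio between GF and CON had a 95% interval from 0.597 to 2.52.

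*Htr3a*, the ion channel subunit, was at 4.18, 6.49, 5.29 and 4.26 CPM in CON, 3.90, 4.68, 4.6 and 4.31 in GF, and 4.51, 3.71, 5.0 and 4.55 in exGF. CON2 was the highest of all libraries. *Htr3a* had the smallest p of the receptor genes in CON against GF, with a log2 fold change of -0.19 (SE 0.18, adjusted p = 0.805), which was -0.05 without CON2. The value from CON to exGF was likewise -0.19 (SE 0.18), and -0.05 without CON2.

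**Figure D2:**
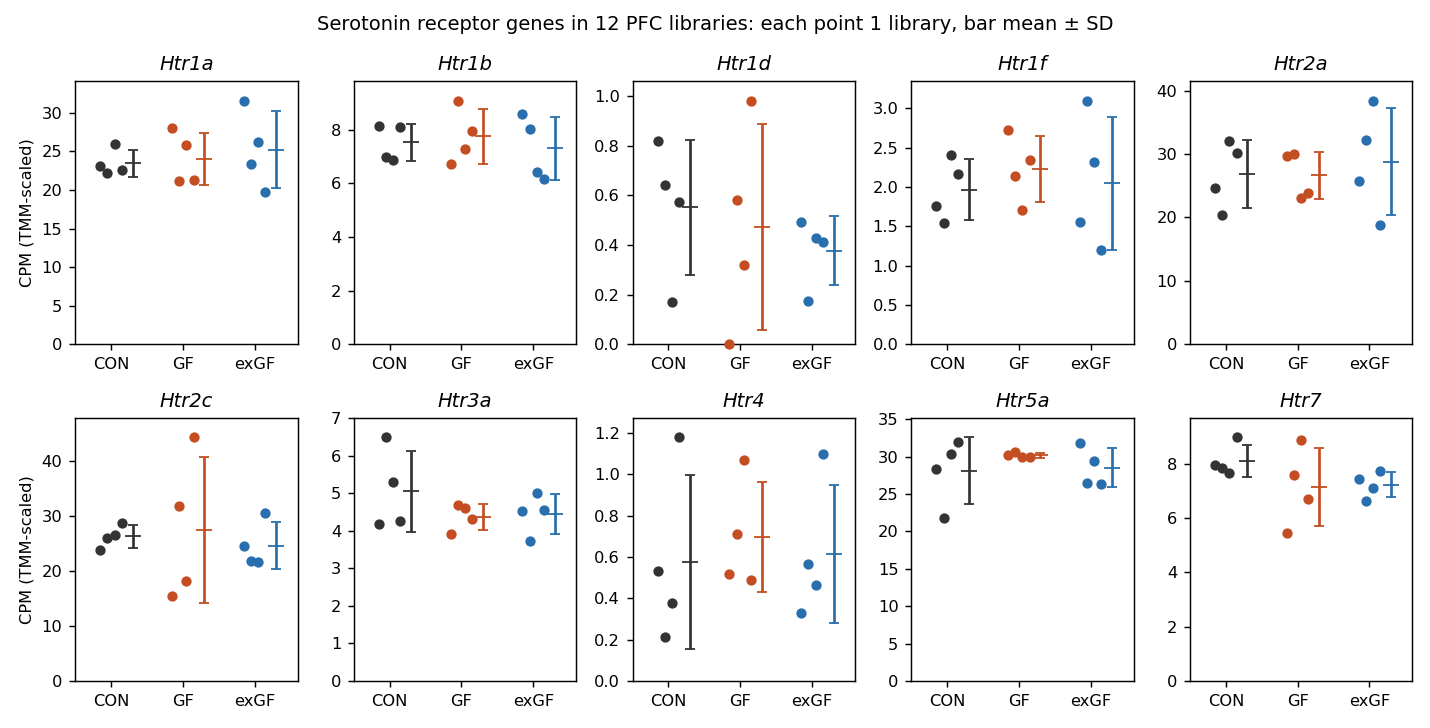
TMM-scaled CPM of the 10 receptor genes in the 12 PFC libraries, with axes from 0. Each point is 1 library and the bar beside each group is the mean ± SD over 4 libraries. The groups overlap for every gene, the GF libraries of *Htr2c* spread from 15.5 to 44.3 CPM, and those of *Htr5a* lie between 29.9 and 30.7 CPM. That range of *Htr5a* is narrower than counting noise would give.

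The receptor genes as a list stayed near the median of all genes. The median log2 fold change of the 10 genes from CON to GF was 0.05, with 7 of 10 positive and a range from -0.19 to 0.29, beside a median of 0.01 over all genes tested. From CON to exGF the median was -0.03, with 5 of 10 positive and a range from -0.52 to 0.09, and the median of all genes was -0.01. From GF to exGF it was -0.10 over 9 genes, 3 of them positive, with a range from -0.20 to 0.10 and a median of all genes of -0.00. For *Htr1a*, *Htr1b*, *Htr5a* and *Htr7* the 95% intervals of the CON to GF ratio lay between 0.711 and 1.29, whereas that of *Htr1d* ran from 0.363 to 2.32 and that of *Htr2c*, despite its higher counts, from 0.736 to 1.52. These intervals, and not the p-values, bear on what size of change can be set aside. They rest on a spread shared by both groups and drawn toward that of other genes. The CV of *Htr2c* was 7.82% in CON and 48.5% in GF, so its interval may be too narrow.

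**Figure D3:**
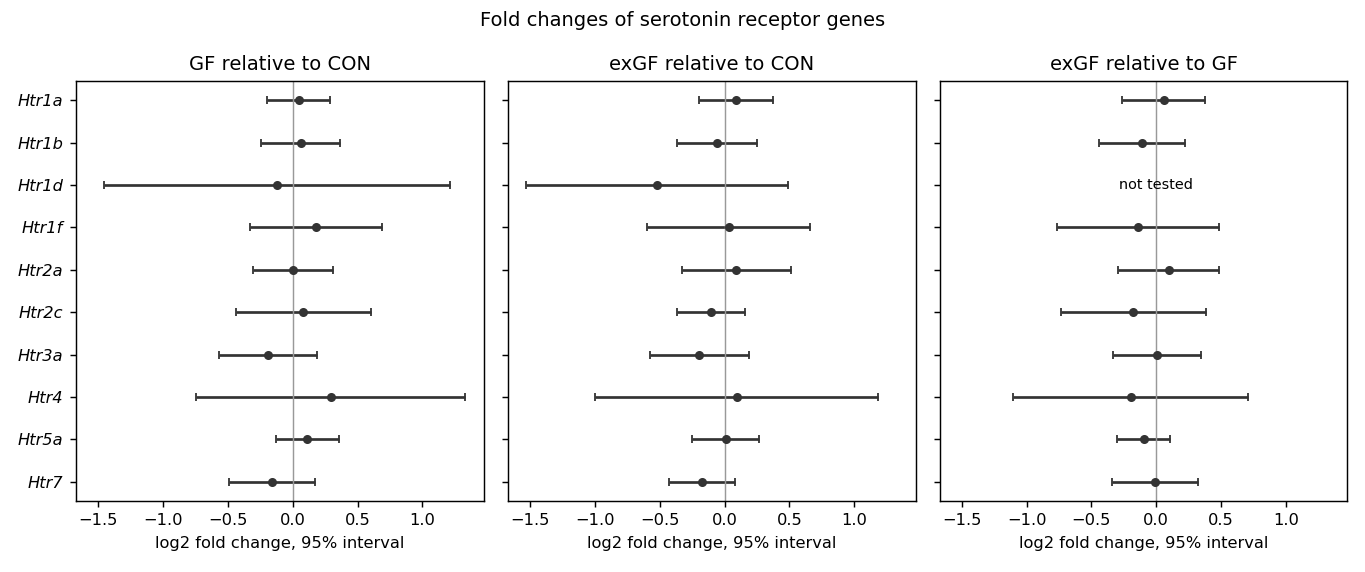
Log2 fold changes of the 10 receptor genes with 95% intervals from edgeR's quasi-likelihood fits, for GF relative to CON, exGF relative to CON and exGF relative to GF. Every interval includes 0, and those of *Htr1d* and *Htr4* are the widest. *Htr1d* was not tested in GF against exGF.

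Over all 12 libraries, *Htr2c* and *Htr2a* varied more than most genes of like level. The CV of *Htr2c* was 28.6%, beside a median of 11.2% over the 2504 expressed genes within 0.5 log2 units of its mean CPM, of which 98.9% had a CV no larger. That of *Htr2a* was 20.7%, at the percentile 94.2 of 2516 such genes. *Htr1a* (13.9%) was at the percentile 70.7 and *Htr5a* (9.87%) at 39.3. *Htr1b*, *Htr7* and *Htr3a*, with CVs of 12.2% to 15.8%, were at the percentiles 19.7, 25.1 and 29.1. The low-count genes *Htr1d* (60.0%), *Htr4* (50.7%) and *Htr1f* (26.3%) were at 85.5, 79.3 and 56.5. This is a description of these pools, which differ in the animals and in the exact tissue they hold.

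Some receptor genes went together over the libraries. Of the 45 pairs of receptor genes, *Htr1f* and *Htr2a* had the highest correlation of log2 CPM (Pearson's r = 0.793, permutation p = 0.00268, Benjamini-Hochberg adjusted 0.121, and Spearman's rho = 0.734, permutation p = 0.00946, adjusted 0.213). With the group means removed r was 0.839, and without GFR2 and GFR4, the 2 libraries farthest from the median of *Htr1f*, it was 0.684. Without CON2 and GFR4 it was 0.597 over 10 libraries (permutation p = 0.0683, adjusted 0.570). *Htr1a* and *Htr2c* had the lowest correlation (r = -0.628, permutation p = 0.0286, adjusted 0.429, and rho = -0.748, permutation p = 0.00663, adjusted 0.213), which was -0.703 without GF1 and GFR1 and -0.616 without CON2 and GFR4. Neither pair passed the adjustment over 45 pairs. Nor did either keep its place without CON2 and GFR4, where *Htr1d* and *Htr2c* had the highest r (0.726, permutation p = 0.0216, adjusted 0.570) and *Htr1f* and *Htr7* the lowest (-0.621, permutation p = 0.0533, adjusted 0.570). The 12 libraries span 3 groups and share 1 scaling, so they are not 12 repeats of 1 condition.

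*Htr1f*, *Htr2a* and *Htr5a* were lowest or near lowest where striatal transcripts were highest. *Htr1f* was at 1.54 CPM in CON2 and 1.20 in GFR4, and at 1.56 to 3.10 in the other libraries. *Htr5a* was at 21.8 CPM in CON2 and 26.4 in GFR4. Because these libraries form a cluster of their own in striatal level, correlations with the mean log2 CPM of the 9 striatal markers are given over the other 10 libraries. There r was -0.655 for *Htr1f* (permutation p = 0.0374, adjusted 0.499 over 120 pairs of a receptor gene and a marker list, and rho = -0.685, permutation p = 0.0353, adjusted 0.706), and without the 2 libraries farthest from its median it was -0.468. For *Htr2a* r was -0.214 (permutation p = 0.552), and for *Htr5a* it was 0.343 (permutation p = 0.327). For the list of 10 genes of the interneurons that carry *Htr3a*, such as *Vip*, *Reln* and *Ndnf*, r with *Htr3a* was 0.718 over 12 libraries (permutation p = 0.00492, adjusted 0.295, and rho = 0.727, permutation p = 0.00994, adjusted 0.292). Without CON2 and GFR2 this r was 0.568, and over the 10 libraries without CON2 and GFR4 it was 0.684 (permutation p = 0.0307, adjusted 0.492). The genes of this list did not all go the same way. In CON2, where *Htr3a* was highest, *Calb2* was at 24.1 CPM, also its highest. *Reln* was at 88.6 CPM there and at 124 in CON4, and *Lamp5* at 309 there and at 442 in GF1. *Htr3a* also had r = 0.773 with the microglia list (permutation p = 0.0121, adjusted 0.334, and rho = 0.559, permutation p = 0.0624), r = 0.649 with the striatal list (permutation p = 0.0271, adjusted 0.334, and rho = 0.727, permutation p = 0.00964) and r = 0.604 with the list of *Pvalb* and *Sst* interneurons (permutation p = 0.0391, adjusted 0.334, and rho = 0.483, permutation p = 0.115). Without CON2 and GFR4 these were 0.357, 0.525 and 0.403. With the 5 oligodendrocyte markers, *Htr2a* had r = -0.593 (permutation p = 0.0437, adjusted 0.334, and rho = -0.713, permutation p = 0.0121, adjusted 0.292), which was -0.854 with group means removed, -0.468 without GFR3 and GFR4, and -0.696 without CON2 and GFR4 (permutation p = 0.0250, adjusted 0.492). *Htr1f* had r = -0.347 with them (permutation p = 0.271) and -0.795 with group means removed, and the other 8 receptor genes had r between -0.151 and 0.338. The inverse correlation of *Htr2a* was not particular to oligodendrocytes. Over 12 libraries its r was -0.713 with the striatal list, -0.639 with cortical layer 6 markers and -0.610 with the *Pvalb* and *Sst* list. With upper-layer markers it was 0.566. Without CON2 and GFR4 these were -0.214, -0.711, -0.416 and 0.716, and none had an adjusted p under 0.1. Over all 12 libraries the smallest adjusted p of the 120 pairs was 0.0840, for *Htr1f* and the striatal markers (r = -0.801, and rho = -0.811, adjusted 0.292). This value includes the cluster of CON2 and GFR4, and over the other 10 libraries the adjusted p of the same pair was 0.499. Without CON2 and GFR4 the smallest adjusted p of the 120 pairs was 0.140, for *Htr1f* and the raphe list (r = -0.872, permutation p = 0.00117, and rho = -0.830, adjusted 0.349). *Htr2a* had r = -0.793 with that list there (permutation p = 0.00615, adjusted 0.369). In the raphe list *Fev* had 0 counts and *Slc6a4* at most 7.

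**Figure D4:**
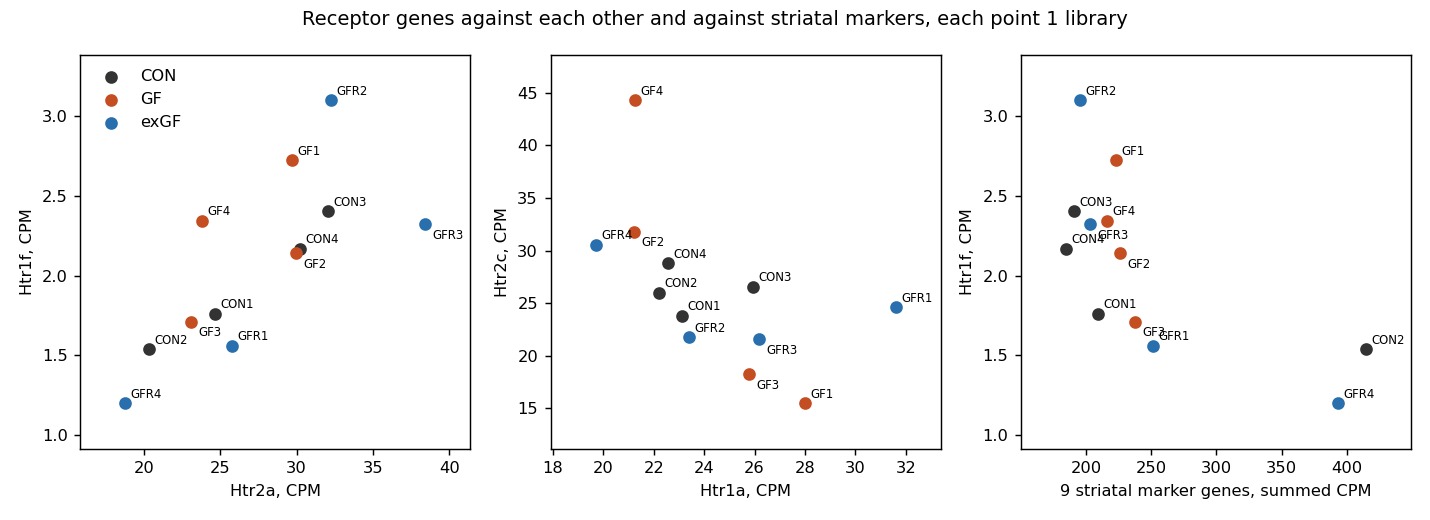
CPM of *Htr1f* against *Htr2a*, of *Htr2c* against *Htr1a*, and of *Htr1f* against the summed CPM of 9 striatal marker genes. Each point is 1 library with its name, coloured by group. The points of the first panel rise to the right with *r* = 0.793 on the log2 scale and those of the second fall with *r* = -0.628, both with single libraries off the trend such as GF4 and GFR1, and CON2 and GFR4 lie apart at 415 and 393 CPM of striatal markers.

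For each receptor gene the 2 most similar genes were taken by Pearson's r of log2 CPM over the 12 libraries, among the expressed genes, as a description. For *Htr2a* they were *Dlgap2* (r = 0.967), which encodes a scaffold protein of the postsynaptic density, and *Atp6v0a2* (0.932). For *Htr1f* the gene given is *Prex1* (0.894). For *Htr5a* they were *Tppp* (0.965), a microtubule-binding protein gene, and *Rad51ap1* (0.935), and for *Htr1b* *Tmem64* (0.952) and *Hltf* (0.950). *Htr2c* was most like *Phldb2* (0.933) and *Usp27x* (0.913), *Htr1a* like *Ttl* (0.880) and *Slco2a1* (0.857), *Htr7* like *Lcn2* (0.893) and *Mboat1* (0.878), and *Htr3a* like *Uxt* (0.880) and *Ifitm3* (0.868). For the low-count genes they were *Calca* (0.920) and *5430403G16Rik* (0.906) for *Htr1d*, and *Rassf5* (0.865) and *6230400D17Rik* (0.843) for *Htr4*. No receptor gene was among the 2 most similar genes of another.

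The other 4 serotonin receptor genes were mostly low. *Htr6*, a Gs-coupled receptor, had 58 to 184 counts per library and group means of 5.29 ± 0.982 (CON), 5.19 ± 1.12 (GF) and 5.21 ± 0.958 CPM (exGF). *Htr5b* had 6 to 44 counts, *Htr2b* 0 to 11 and *Htr3b*, whose product joins *Htr3a* in a channel, 0 to 4. *Htr6* and *Htr5b* were tested and neither was called, with log2 fold changes of -0.02 and -0.07 from CON to GF. *Htr2b* shares 252 exon bases with *Psmd1* on the opposite strand, and pairs from that stretch cannot be given to either gene. Whether its few counts are its own was not tested.

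Genes that make, move and break down serotonin were measured next to the receptors. Of the 10 on the list, 8 were tested and 0 were called in each comparison. Of all genes, 0.251% were called in CON against GF, 0.0696% in CON against exGF and 0% in GF against exGF. *Tph2*, the neuronal enzyme of serotonin synthesis, had at most 25 counts per library, and *Slc6a4*, the serotonin transporter, at most 7. *Slc29a4*, a low-affinity transporter of monoamines, was at 10.9 ± 2.24 CPM in CON and 8.45 ± 0.731 in GF, a log2 fold change of -0.35 (SE 0.15, adjusted p = 0.538). In CON against GF it was the only gene of the list with an unadjusted p under 0.05 by edgeR, beside 8.69% of all genes. *Maoa*, which breaks serotonin down, was at 37.3 ± 1.79 CPM in the CON libraries, 41.9 ± 3.18 in those of GF and 37.6 ± 4.00 in those of exGF, and it had a log2 fold change from CON to GF of 0.18 (SE 0.09, adjusted p = 0.604). *Tph2* was higher in all 4 GF than in all 4 CON libraries, at 0.998 ± 0.227 against 0.619 ± 0.135 CPM (adjusted p = 0.584). It was the only 1 of the 8 tested genes without overlap, beside 5% of all genes. From CON to exGF the smallest p of the list belonged to *Slc22a3*, *Gch1* and *Maob*, with adjusted p-values of 0.952, 0.970 and 0.976, and from GF to exGF to *Maoa*, *Tph2* and *Slc29a4*, with 0.759, 0.759 and 0.809. DESeq2 called 0 genes of the list in each comparison, with 1, 0 and 1 of 10 at an unadjusted p under 0.05, beside 6.07%, 4% and 4.76% of all genes.

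Of 19 genes of G proteins and effectors, 0 were called in each comparison by edgeR, beside 0.251%, 0.0696% and 0% of all genes. The groups did not overlap for 1, 0 and 1 of the 19, beside 5%, 3.32% and 3.53% of all genes. *Kcnj3*, which encodes a subunit of the potassium channel that Gi/o-coupled receptors open, came closest. It was at 125 ± 8.63 CPM in CON (112 to 130.3 in the 4 libraries) and 159 ± 8.06 in GF (147 to 164), so that the lowest GF library lay above the highest CON library. The log2 fold change was 0.35 (SE 0.08, adjusted p = 0.143), and DESeq2 and the edgeR fit without a filter called it, with adjusted p-values of 0.00719 and 0.0892. Both called more genes than the reported fit, DESeq2 0.812% of all genes and the fit without a filter 221 of 24405. In exGF *Kcnj3* was at 147 ± 33.1 CPM and spread over both groups. In the same comparison *Gnal*, the alpha subunit of the Gs-like protein Golf, was at 234 ± 13.1 CPM in CON and 203 ± 14.8 in GF (log2 fold change -0.19, adjusted p = 0.506), and *Gnai1*, an alpha subunit of Gi, at 119 ± 6.35 and 139 ± 24.3 (0.24, adjusted p = 0.568). From GF to exGF, *Gnal* was at 234 ± 7.09 CPM in exGF, with all exGF above all GF libraries (0.19, adjusted p = 0.736), followed by *Adcy5* (0.23, adjusted p = 0.739) and *Gnai1* (-0.22, adjusted p = 0.746). From CON to exGF the smallest p belonged to *Plcb1*, *Plcb3* and *Kcnj3*, each with an adjusted p of 0.952. At an unadjusted p under 0.05 edgeR gave 3, 0 and 2 of the 19 genes, beside 8.69%, 5.33% and 6.65% of all genes, and DESeq2 gave 4, 0 and 2, beside 6.07%, 4% and 4.76%, in the order CON against GF, CON against exGF and GF against exGF.

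The 15 partners, editing enzymes and regulators of the receptors gave 0 calls in each comparison as well, beside 0.251%, 0.0696% and 0% of all genes by edgeR. At an unadjusted p under 0.05 edgeR gave 1, 0 and 2 of them, beside 8.69%, 5.33% and 6.65% of all genes. DESeq2 gave 1, 0 and 2, beside 6.07%, 4% and 4.76%. These counts lie near the shares of all genes. The groups did not overlap for 0, 0 and 1 of the 15, beside 5%, 3.32% and 3.53% of all genes. *Arrb2*, an arrestin that ends receptor signalling, was at 43.5 ± 6.92 CPM in CON and 36.4 ± 2.97 in GF (log2 fold change -0.25, SE 0.11, adjusted p = 0.568). *Rgs7* and *Rgs4*, which speed the switching off of G proteins, had log2 fold changes from CON to GF of 0.20 and 0.13, and *Rgs7* one of 0.21 from CON to exGF, where *S100a10* (-0.24) and *Cc2d1b* (0.23) followed. *S100a10*, a protein that binds *Htr1b* and *Htr4* receptors, was at 32.2 ± 3.30 CPM in GF and 26.0 ± 3.74 in exGF (log2 fold change -0.33, SE 0.12, adjusted p = 0.736). *Adar*, one of the enzymes that edit *Htr2c* transcripts, was at 167 ± 6.85 CPM in GF and 189 ± 10.0 in exGF, with all exGF above all GF libraries (0.16, SE 0.07, adjusted p = 0.739), and *Rgs19* had a log2 fold change of -0.19. Editing itself cannot be read from gene counts.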

How the data were processed

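RNA sequencing was done on polyA-selected RNA pooled within a group from 2 to 3 animals per library, with a stranded kit and paired reads. Per the labels and the study's methods, the authors trimmed reads with Trimmomatic 0.32, aligned them to GRCm38.p3 with STAR (2.3.1u in the submitters' processing notes, another version in the supplementary methods) and counted pairs on Ensembl genes with HTSeq 0.6.0 without regard to strand. The deposited values are raw counts per gene, with no normalization. The rows of pairs given to no gene (4.57% to 7.31% outside genes, 1.10% to 1.32% ambiguous and 13.0% to 19.2% aligned to several places, as a share of all pairs of a library) stayed out of library sizes and tests. The GFR columns were taken as the exGF group and were not matched to single exGF samples.

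Gene symbols, coordinates and exon lengths came from a GRCm38 annotation that named 40254 of the 41388 genes. CPM were computed with TMM scaling over all 12 libraries. Each pair of groups was filtered with filterByExpr, scaled by TMM and compared by the quasi-likelihood F-test of edgeR. P-values were adjusted over all genes tested after Benjamini and Hochberg, with a threshold of 0.1 as in the study's methods (R 4.3.3, edgeR 4.0.16, limma 3.58.1, DESeq2 1.42.0). The fits were tested on simulated data first. Correlations used log2 CPM with a prior count of 1 and 100000 permutations. The receptor genes and the other gene lists were chosen with earlier results of these data known. The text names every receptor gene, the 3 genes with the smallest p of each further list in each comparison, and the 2 genes most similar to each receptor gene, except 1 that is not reported here. Alternatives were other scalings, no filter, DESeq2, limma-voom, 1 fit of all 12 libraries, a stricter threshold, a replicate block and leaving out each library. Libraries of a group differed by a mean chi-square per gene of 8.73 to 37.3, so no library was a copy of another of its group. The p-values of the fits set a group difference against the spread between these pools, and not between single mice.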

Additional observations from a re-analysis of the deposited data

How the results depend on the processing

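No alternative called a receptor gene, in any comparison, and none gave a receptor gene an unadjusted p under 0.05. Of 194 log2 fold changes recomputed under other settings, 182 kept their sign, and of 232 recomputed with 1 library left out, 192 did. The smallest adjusted p was 0.773 under other settings and 0.448 with a library left out (*Htr5a*, GF against exGF, without GFR1). The other 12 changed sign under another setting. *Htr2a* from CON to GF was -0.00395 with RLE scaling, -0.00926 with upper-quartile scaling, -0.0172 without a filter and -0.00337 by DESeq2. *Htr2c* from CON to GF was -0.0184 by limma-voom and -0.0326 with the replicate block. By limma-voom *Htr1f* from CON to exGF was -0.0695 and *Htr3a* from GF to exGF -0.00401, and with upper-quartile scaling *Htr7* from GF to exGF was 0.00900. With CON2 and GFR4 left out together, an alternative chosen after seeing the data, the values from CON to exGF were 0.00160 for *Htr1b*, -0.607 for *Htr4* and -0.0413 for *Htr5a*. Per kilobase of its longest transcript *Htr2c* was at 5.35 CPM.

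With each library left out in turn, log2 fold changes from CON to GF ranged from -0.0447 to 0.103 for *Htr1a*, -0.0261 to 0.110 for *Htr1b*, -0.695 to 0.202 for *Htr1d*, 0.0653 to 0.287 for *Htr1f*, -0.110 to 0.0965 for *Htr2a*, -0.246 to 0.259 for *Htr2c*, -0.270 to -0.0504 for *Htr3a*, 0.0177 to 0.909 for *Htr4*, 0.00986 to 0.181 for *Htr5a* and -0.280 to -0.0706 for *Htr7*. From CON to exGF they ranged from -0.0283 to 0.213 for *Htr1a*, -0.139 to 0.0341 for *Htr1b*, -0.837 to -0.249 for *Htr1d*, -0.222 to 0.239 for *Htr1f*, -0.0764 to 0.267 for *Htr2a*, -0.210 to -0.0407 for *Htr2c*, -0.271 to -0.0482 for *Htr3a*, -0.347 to 0.706 for *Htr4*, -0.0911 to 0.0726 for *Htr5a* and -0.206 to -0.126 for *Htr7*. From GF to exGF they ranged from -0.0788 to 0.159 for *Htr1a*, -0.206 to -0.0250 for *Htr1b*, -0.401 to 0.0511 for *Htr1f*, -0.0731 to 0.256 for *Htr2a*, -0.361 to 0.148 for *Htr2c*, -0.0521 to 0.0836 for *Htr3a*, -0.650 to 0.0774 for *Htr4*, -0.161 to -0.0608 for *Htr5a* and -0.102 to 0.110 for *Htr7*. The causes were not tested.

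For CON and GF libraries with the same number, deviations from the group means correlated at r = -0.03, -0.05, -0.04 and 0.03. Pairs with unlike numbers had r from -0.08 to 0.10. Such values cannot show whether libraries of the same number shared more than the number. The fit with the replicate block called 51 genes in all, against 39 without it, and 0 receptor genes. Calls over all genes moved most without a filter and by DESeq2, to 221 and 198 in CON against GF (39 in the reported fit), 48 and 60 in CON against exGF (11) and 32 and 21 in GF against exGF (0). With 1 library left out, CON against GF gave 27 to 60 calls.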
